A study of Mus musculus with 8 samples.

Results

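The genes of cholesterol and fatty acid synthesis, 32 in number, were followed through single-nucleus RNA sequencing of mouse brain hemispheres. They were chosen by name as enzymes of the mevalonate and sterol pathway, enzymes that build and desaturate fatty acids, and the sensors that control both pathways, and all 32 were found among the 32285 genes of the count table. By role they comprised 7 genes of the early steps to farnesyl diphosphate (Acat2, Hmgcs1, Mvk, Pmvk, Mvd, Idi1 and Fdps) and 11 genes of the squalene and sterol steps (Fdft1, Sqle, Lss, Cyp51, Tm7sf2, Msmo1, Nsdhl, Hsd17b7, Ebp, Sc5d and Dhcr7). A further 6 genes are regulators or carry sterols (Srebf1, Srebf2, Scap, Insig1, Insig2 and Stard4), and 8 make, lengthen or desaturate fatty acids (Acaca, Fasn, Elovl1, Elovl6, Scd1, Scd2, Fads1 and Fads2).

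The nuclei came from 6-month-old C57BL6/J mice of 4 genotypes, with 2 libraries each: WT, Cnp-/-, 5xFAD and Cnp-/-;5xFAD. Cnp encodes a protein of the myelin sheath, and its deletion leaves mice with defective myelin. 5xFAD mice carry mutant human transgenes driven by the neuronal Thy1 promoter and deposit amyloid in the brain. Cnp is deleted in every cell of the Cnp-/- mice, and the transgenes are expressed mainly by neurons, so a difference seen in one cell class need not have begun in that class. The study's reporting summary states that each single-cell replicate pooled 2 animals, whereas its methods mention pooling only for another dataset. The p-values thus measure the spread between libraries, which may be pools or single mice.

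Cholesterol hardly crosses the blood-brain barrier, so the brain makes its own. Astrocytes and myelin-forming oligodendrocytes are known as its main producers, and neurons of the adult brain are held to take up cholesterol from astrocytes. When sterols are low, SCAP escorts the transcription factors SREBP-1 and SREBP-2, encoded by Srebf1 and Srebf2, from the endoplasmic reticulum, where the INSIG proteins otherwise hold them. SREBP-2 mainly drives the sterol genes and SREBP-1 mainly the fatty acid genes.

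The authors' annotation sorted 61949 nuclei into 8 classes, and each class had the highest summed level of its own marker list. The libraries held 6801 to 8824 nuclei and 68905044 to 82399061 UMIs (unique molecular identifiers, each marking 1 captured RNA molecule). Nuclei numbered 45141 for neurons, 5612 for mature oligodendrocytes (MOL), 4810 for astrocytes, 2472 for microglia, 1522 for oligodendrocyte precursor cells (OPC) and 465 for newly formed oligodendrocytes (NFOL), with endothelial cells and pericytes making up the rest. Any pair of libraries shared 9 to 28 cell barcodes. UMIs were summed per library and class and are given as CPM, the UMIs of a gene per 1000000 UMIs of that class. CPM of nuclei are not corrected for gene length, so levels are compared between classes and genotypes and not between genes. In MOL, Cnp itself stood at 283 and 321 CPM in WT and 219 and 265 CPM in 5xFAD, against 23.1 and 23.2 CPM in Cnp-/- and 24.0 and 32.8 CPM in Cnp-/-;5xFAD, as the labels imply (log2 fold change -3.32, adjusted p = 0.000801, edgeR).

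The 32 genes together were highest in astrocytes, with a summed level of 2719 ± 270 CPM (SD, n = 8 libraries), followed by MOL with 1931 ± 482 CPM. NFOL held 1442 ± 185 CPM, OPC 1084 ± 64.0 CPM, neurons 856 ± 84.7 CPM and microglia 798 ± 163 CPM. The range in astrocytes, 2262 to 3097 CPM, overlapped that of MOL, 1303 to 2694 CPM, and the levels of neurons and microglia differed by less than their spread. The classes had been defined from the same counts, so differences between them are a description without a test.

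By summed level, the sterol pathway, more than the fatty acid genes, set astrocytes apart. The early steps summed to 297 ± 34.8 CPM in astrocytes, against 143 CPM in NFOL and 94.1 ± 55.4 CPM in MOL. The squalene and sterol steps summed to 672 ± 81.6 CPM in astrocytes, 289 CPM in NFOL, 265 CPM in MOL and 213 CPM in neurons. For the fatty acid genes, by contrast, astrocytes (1274 ± 148 CPM) and MOL (1217 ± 316 CPM) lay within each other's spread when genotypes were pooled. Without Cnp loss the MOL libraries (1423 to 1637 CPM) lay above the astrocyte libraries (1218 to 1366 CPM), and with Cnp loss the means were 940 CPM in MOL and 1264 CPM in astrocytes. Acaca and Scd2 made up much of these sums, at 645 and 574 CPM in MOL and 358 and 345 CPM in astrocytes without Cnp loss. The closeness of MOL to astrocytes in the fatty acid sums thus rested on Acaca and Scd2. Without Acaca and Scd2, all other members summed to 2016 CPM in astrocytes and 954 CPM in MOL.

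By single genes, 25 of the 32 were highest in astrocytes among the 6 classes tested below. For 7 of them every astrocyte library lay above every library of the other tested classes: Hmgcs1 (127 ± 18.7 CPM), which makes the HMG-CoA that feeds the mevalonate pathway, the sterol enzymes Tm7sf2, Msmo1 (190 ± 33.7 CPM) and Nsdhl, the regulator Srebf1, and the desaturases Fads1 (126 ± 14.2 CPM) and Fads2 (249 ± 29.6 CPM). MOL were highest for 5 genes (Ebp, Scap, Acaca, Elovl1 and Scd2), OPC for Elovl6 and microglia for Insig2. Of these, Scd2 and Scap were highest in MOL only without Cnp loss (Scd2 574 CPM in MOL and 345 CPM in astrocytes), whereas with Cnp loss astrocytes were highest for Scd2 (360 CPM, against 208 CPM in MOL) and Scap (56.2 CPM). Insig2 was likewise highest in microglia, and Elovl6 in OPC, within 1 of the 2 Cnp arms. Among all 8 classes, Stard4, which carries cholesterol between membranes, was highest in endothelial cells at 45.7 ± 6.08 CPM, with no overlap with astrocytes, the next class by mean, and a partial overlap with pericytes (0 to 43.5 CPM, on 4 UMIs in all).

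**Figure D1:**
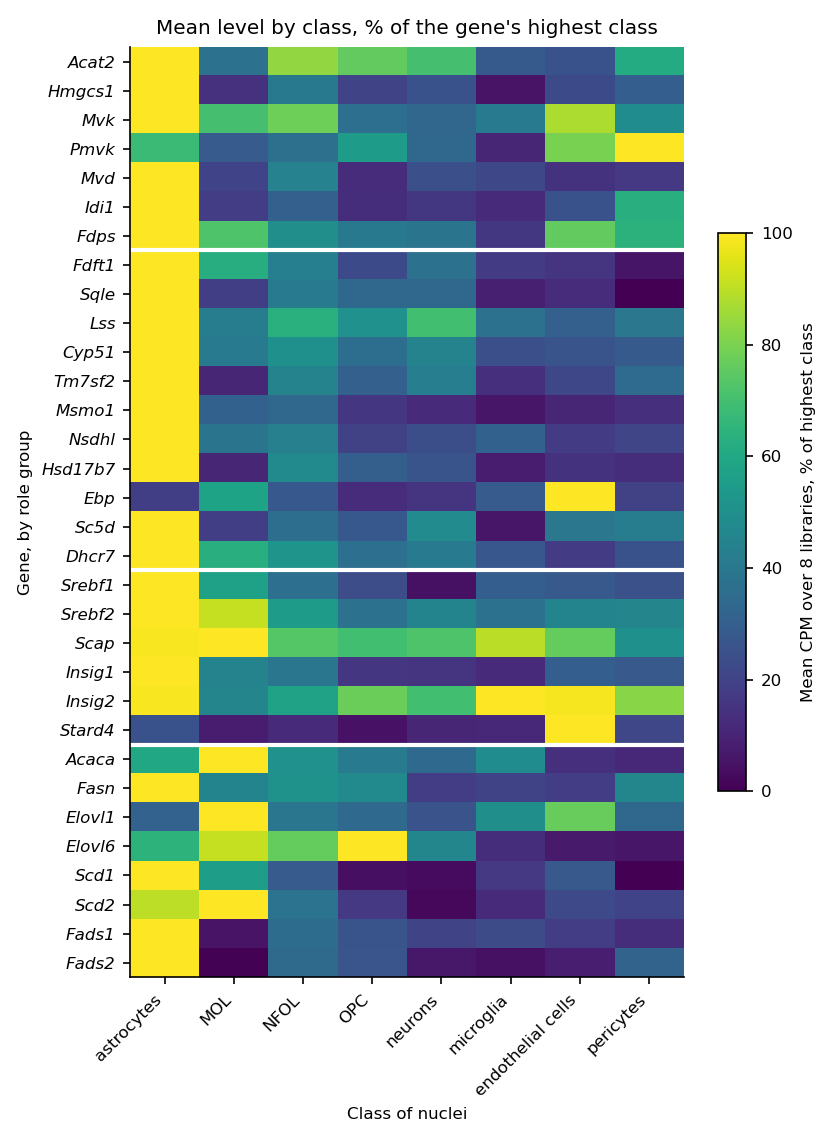
Mean level of each of the 32 genes (rows, grouped by role) in each of the 8 classes (columns), as a percent of the gene's highest class, over the libraries of all genotypes. Bright cells, which mark high levels, gather in the astrocyte column for the sterol genes, while Acaca, Scd2 and Elovl1 are highest in mature oligodendrocytes.

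Enzymes of one family divided differently between the classes. Scd1 and Scd2 encode stearoyl-CoA desaturases, which turn saturated into monounsaturated fatty acids. Scd2 stood at 391 ± 226 CPM in MOL, 352 ± 118 CPM in astrocytes, 149 CPM in NFOL and 8.96 CPM in neurons. Scd1 was highest in astrocytes at 20.3 CPM, ahead of MOL at 11.2 CPM, and reached 0.62 CPM in neurons.

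The elongases of saturated fatty acids also parted. Elovl1, which makes very long chains, stood at 30.4 CPM in MOL against 9.56 CPM in astrocytes. Elovl6, which lengthens palmitate, was highest in OPC at 187 CPM and in MOL at 170 CPM, with 121 CPM in astrocytes and 24.8 CPM in microglia.

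Fads1 and Fads2, which introduce the double bonds of polyunsaturated fatty acids, stood higher in newly formed than in mature oligodendrocytes. Fads2 stood at 86.3 CPM in NFOL (44.6 to 127 CPM) and at 1.37 CPM in MOL (0 to 6.1 CPM). Fads1 followed with 44.3 CPM in NFOL and 6.6 CPM in MOL. Both genes were highest in astrocytes, and the 5 astrocyte markers summed to 1573 CPM in NFOL, 23.8 CPM in MOL and 8615 CPM in astrocytes. Their part in the difference was not tested. The plot of levels by class shows both genes bright in astrocytes, intermediate in NFOL and dark in MOL.

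To ask how loss of Cnp, the 5xFAD transgenes and their combination acted on these genes, each class was fitted with edgeR's quasi-likelihood test. The effect of Cnp loss was averaged over both 5xFAD backgrounds (4 libraries with and 4 without), the effect of 5xFAD over both Cnp backgrounds, and the interaction is the difference between the effects. Adjusted p-values are Benjamini-Hochberg values over all genes tested in a class, with a threshold of 0.05. A class profile gives the make-up of the RNA of its nuclei, and shifts in the kinds of nuclei within a class and changes within nuclei cannot be told apart.

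Cnp loss lowered Scd2 in MOL. Scd2 stood at 564 and 790 CPM in WT and 443 and 502 CPM in 5xFAD, against 191 and 118 CPM in Cnp-/- and 212 and 311 CPM in Cnp-/-;5xFAD, from 97 to 798 UMIs per library. All 4 libraries with Cnp loss (208 ± 79.4 CPM) lay below all 4 without it (574 ± 152 CPM). The fall was 2.66-fold (log2 fold change -1.41, SE 0.201, adjusted p = 0.0326). The log2 fold change stayed between -1.59 and -1.27 when each library was left out in turn, but the call held in 1 of these 8 fits, the one without the first Cnp-/- library, and the adjusted p ranged from 0.0306 to 0.120. The difference was larger on the background without 5xFAD (interaction 1.26, SE 0.398, unadjusted p = 0.0142), but the interaction did not pass over all genes (adjusted p = 1.0).

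Scd2 was the only one of the 25 members tested in MOL past the threshold for Cnp loss, where 0.765% of all 8761 genes were called. At an unadjusted p under 0.05, 4 members were lower (Scd2, Srebf1, Pmvk and Fads1), or 16% of those tested, against 6.83% of all genes. The median log2 fold change was -0.75 over the members and -0.03 over all genes, and 4 of the 25 were positive. In 6 members (Scap, Srebf1, Acaca, Fads1, Scd2 and Ebp) every library with Cnp loss lay below every library without it, against 5.96% of all genes.

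Srebf1 and Fads1 were next by p-value in MOL and did not pass. Srebf1 stood at 55.2 and 58.1 CPM in WT and 51.1 and 54.9 CPM in 5xFAD, against 20.1 and 28.1 CPM in Cnp-/- and 34.7 and 26.7 CPM in Cnp-/-;5xFAD. Its ranges did not overlap, with a log2 fold change of -0.94 (SE 0.259, adjusted p = 0.178). Fads1 had 0 to 19 UMIs per library, too few for a fold: 5.18 and 20.1 CPM in WT, 2.22 and 21.3 CPM in 5xFAD, 1.83 and 1.22 CPM in Cnp-/-, and 0 and 1.03 CPM in Cnp-/-;5xFAD (adjusted p = 0.293).

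Acaca encodes acetyl-CoA carboxylase 1, the committed step of fatty acid synthesis. In MOL it stood at 612 and 596 CPM in WT and 722 and 649 CPM in 5xFAD, against 512 and 535 CPM in Cnp-/- and 504 and 549 CPM in Cnp-/-;5xFAD. The groups with (525 ± 20.6 CPM) and without Cnp loss (645 ± 56.1 CPM) thus did not overlap, although Acaca did not pass the test. Acaca, Srebf1 and Fasn lie on chromosome 11 with Cnp, at 16.2, 40.4 and 20.2 Mb from it, and linkage was not tested.

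Among the other regulators in MOL, Srebf2 kept a narrow range of 187 to 217 CPM over all 8 libraries. Scap stood at 69.1 and 87.7 CPM in WT and 76.6 and 62.7 CPM in 5xFAD, and at 62.1 and 7.3 CPM in Cnp-/- and 37.2 and 44.1 CPM in Cnp-/-;5xFAD. Insig1 ranged from 3.5 to 55 CPM and Insig2 from 1.2 to 52.2 CPM.

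Summed over the 32 genes, MOL with Cnp loss held 1532 ± 241 CPM (1303 to 1867), against 2330 ± 245 CPM without it (2166 to 2694), a ratio of 0.66 with no overlap. Without Scd2 the ratio was 0.75, and without Scd2 and Acaca it was 0.72, again with no overlap. The early steps had a ratio of 0.43 (56.5 against 132 CPM), the fatty acid genes 0.63 (940 against 1495 CPM) and the regulators 0.74 (301 against 408 CPM), each without overlap, whereas the sterol steps overlapped at 0.79. The second Cnp-/- library, which had the lowest median UMIs per nucleus in the series, was the lowest of all for Scd2 and Scap and low for Fdft1 (14.6 CPM) and Fasn (3.7 CPM). The 6 markers of MOL summed to 13071 to 16283 CPM with Cnp loss and 13820 to 16256 CPM without it, and so overlapped. The 5 NFOL markers in MOL also overlapped, at 1086 to 1298 CPM with Cnp loss and 1197 to 1271 CPM without it, although one of them, Enpp6, fell (log2 fold change -1.67, adjusted p = 0.0160). Their part in the result was not tested.

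**Figure D2:**
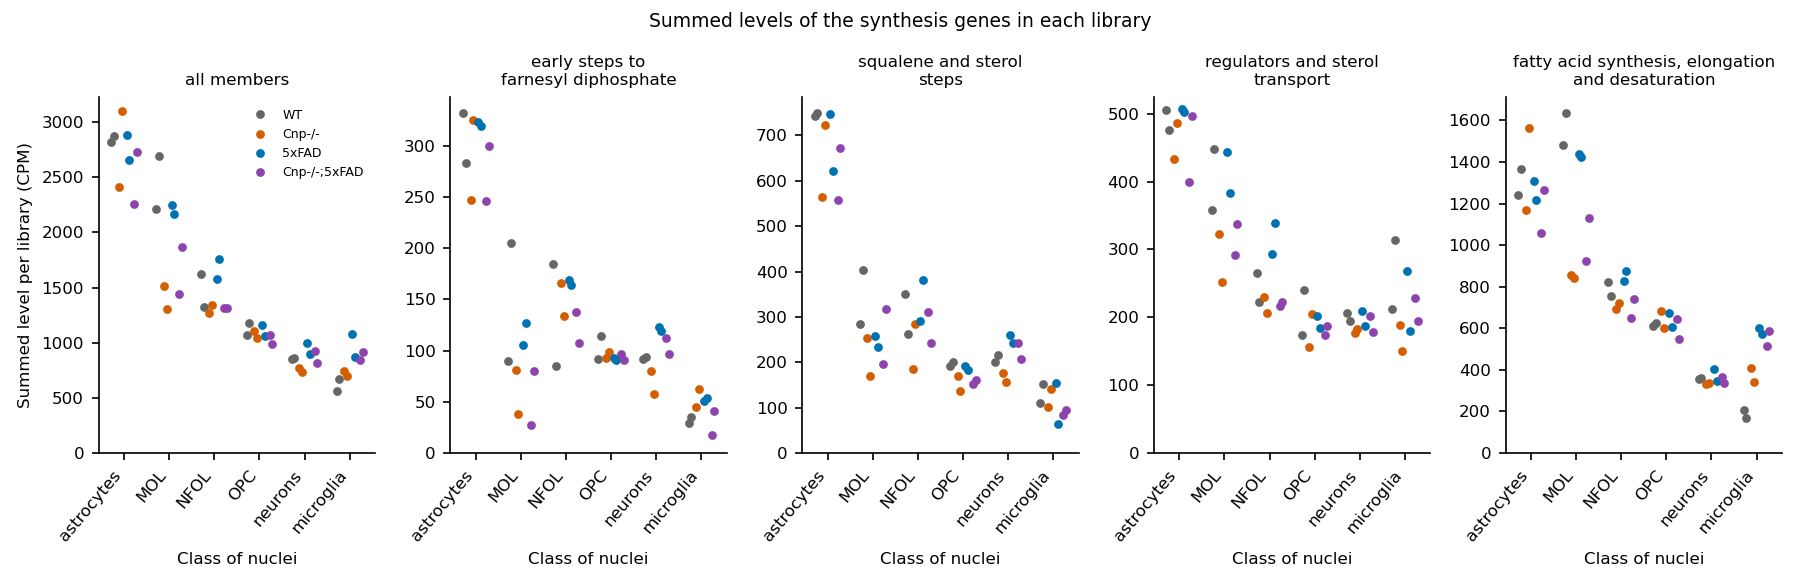
Summed CPM of all 32 genes and of the 4 role groups in 6 classes, with 1 dot per library coloured by genotype. In mature oligodendrocytes the 4 libraries with Cnp loss lie below the other 4 for all genes together (1303 to 1867 against 2166 to 2694 CPM), and astrocytes lie highest for the sterol steps.

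With 5xFAD, 0 of the 25 members were called in MOL by edgeR (0% of all genes), 0 had an unadjusted p under 0.05 and DESeq2 called 0. For the interaction edgeR also called 0 (0% of all genes), with an unadjusted p under 0.05 for 2 members (Sqle, the squalene epoxidase, and Scd2, both with a positive interaction), against 2.26% of all genes in that direction, and 0 calls by DESeq2.

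In NFOL, 17 members were tested and edgeR called 0 for Cnp loss, against 1.60% of all 7248 genes. DESeq2 also called 0, giving an adjusted p for 4 members. At an unadjusted p under 0.05, 6 of the 17 were lower (Fads2, Fasn, Scd2, Srebf1, Msmo1 and Fdft1), or 35.3%, against 6.86% of all genes. The median log2 fold change was -0.51, against 0.01 over all genes, and 5 members (Srebf1, Fasn, Fdft1, Fads2 and Scd2) were lower without overlap, against 4.06% of all genes.

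The 3 NFOL genes with the smallest p-values all belong to fatty acid synthesis. Fads2 stood at 127 and 91.8 CPM in WT and 93.6 and 122 CPM in 5xFAD, against 81.1 and 81.9 CPM in Cnp-/- and 48.3 and 44.6 CPM in Cnp-/-;5xFAD (log2 fold change -0.81, SE 0.215, adjusted p = 0.0716). Without the second WT library it passed, at -0.89 with an adjusted p of 0.0301. The lowest Fads2 values were in the libraries that combined Cnp loss with 5xFAD. Over all 8 libraries Fads2 held 14 to 52 UMIs per library.

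Fasn, which encodes the synthase that assembles palmitate, stood in NFOL at 34.7 and 39.4 CPM in WT and 27.0 and 35.7 CPM in 5xFAD, against 13.5 and 8.6 CPM in Cnp-/- and 20.3 and 11.9 CPM in Cnp-/-;5xFAD (log2 fold change -1.27, SE 0.459, adjusted p = 0.20). The NFOL profiles with Cnp loss held 232054 to 393420 UMIs over all genes. Fasn thus rested on few UMIs there, too few for a precise fold. Scd2 stood at 143 and 236 CPM in WT and 155 and 193 CPM in 5xFAD, against 132 and 142 CPM in Cnp-/- and 61.0 and 131 CPM in Cnp-/-;5xFAD (log2 fold change -0.63, SE 0.234, adjusted p = 0.217). Its groups did not overlap, but the highest library with Cnp loss (142.2 CPM) all but met the lowest without it (142.6 CPM).

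The fatty acid genes of NFOL summed to 700 CPM with Cnp loss (648 to 740) and 821 CPM without it (754 to 877), while the sum over all 32 genes overlapped at a ratio of 0.83. The MOL markers summed to 4258 to 5295 CPM in NFOL with Cnp loss and 1403 to 3503 CPM without it, and Mag, Mbp and Opalin rose by 0.91, 1.18 and 1.24 on the log2 scale. The astrocyte markers overlapped, at 1014 to 1272 CPM with and 1050 to 2894 CPM without Cnp loss, although Aldh1l1 fell (-1.41, adjusted p = 0.0498). The part of these shifts in the result was not tested. For 5xFAD and for the interaction in NFOL, edgeR called 0 members (0% of all genes for both), 0 had an unadjusted p under 0.05, and DESeq2 called 0.

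**Figure D3:**
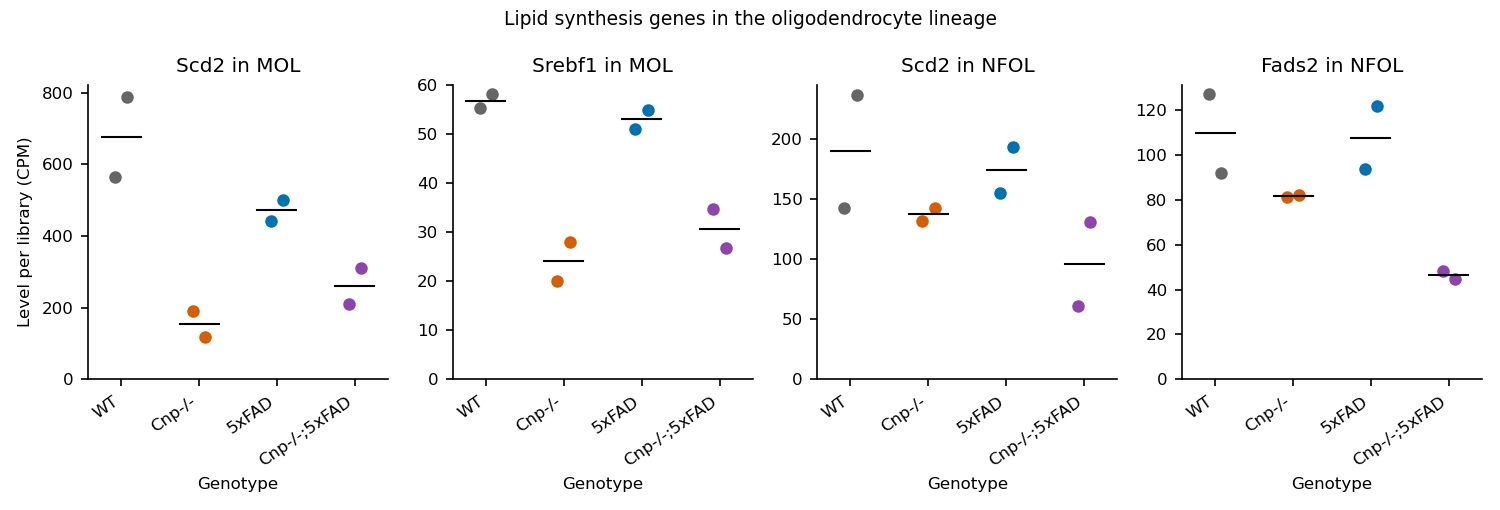
CPM of Scd2 and Srebf1 in mature oligodendrocytes and of Scd2 and Fads2 in newly formed oligodendrocytes, with 1 dot per library and a line at the mean of the 2 libraries of each genotype. In mature oligodendrocytes Scd2 lies at 118 to 311 CPM with Cnp loss and 443 to 790 CPM without it.

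In OPC, 23 members were tested and edgeR called 0 for Cnp loss, 5xFAD or the interaction (0% of all 9264 genes each), and DESeq2 called 0. At an unadjusted p under 0.05 there was 1 member for Cnp loss (Sc5d, lower), 0 for 5xFAD and 1 for the interaction (Hmgcs1, higher). Each is 4.35% of the members, against 2.09% of all genes lower for Cnp loss and 2.13% higher for the interaction. Sc5d, a desaturase of the late sterol steps, stood at 17.1 and 8.56 CPM in WT, 17.4 and 2.10 CPM in Cnp-/-, 29.3 and 14.6 CPM in 5xFAD, and 1.72 and 1.93 CPM in Cnp-/-;5xFAD, on 1 to 31 UMIs per library.

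The first Cnp-/- library thus lay within the range of the libraries that have Cnp (log2 fold change -1.92, SE 0.715, adjusted p = 1.0). The other 3 libraries with Cnp loss held 1 UMI each, too few for a fold without it. Fdps, which makes farnesyl diphosphate, stood at 21.7 and 14.3 CPM in WT, 18.9 and 14.7 CPM in Cnp-/-, 29.3 and 25.9 CPM in 5xFAD, and 10.3 and 13.5 CPM in Cnp-/-;5xFAD (-0.66, SE 0.329, unadjusted p = 0.0729). Msmo1, a demethylase of sterols, stood at 34.1 and 40.0 CPM in WT, 30.0 and 25.1 CPM in Cnp-/-, 20.8 and 42.1 CPM in 5xFAD, and 24.1 and 21.2 CPM in Cnp-/-;5xFAD (-0.39, SE 0.283, unadjusted p = 0.197). Both overlapped between the groups, although the squalene and sterol steps together did not, at 154 CPM with Cnp loss (136 to 169) and 192 CPM without it (183 to 200).

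Astrocytes, the class with the highest levels, passed all 32 members into the test, and edgeR called 0 for Cnp loss, 5xFAD and the interaction (0% of all 11809 genes each). DESeq2 called 0, and an unadjusted p under 0.05 was found for 2 members with Cnp loss (Tm7sf2 and Ebp, lower), or 6.25% against 3.37% of all genes, 0 with 5xFAD and 0 for the interaction. The median log2 fold change for Cnp loss was -0.14, and 5 of the 32 were positive. The 5 astrocyte markers summed to 8216 to 10485 CPM with Cnp loss and 7439 to 8094 CPM without it, without overlap, and their part in the members' values was not tested.

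Tm7sf2, a sterol reductase, stood at 20.0 and 29.2 CPM in WT and 23.7 and 28.4 CPM in 5xFAD, against 17.8 and 15.8 CPM in Cnp-/- and 18.3 and 19.1 CPM in Cnp-/-;5xFAD (log2 fold change -0.51, SE 0.210, adjusted p = 0.917). The ranges did not overlap, and Fdft1 was the other member lower without overlap, against 1.45% of all genes. Ebp, a sterol isomerase, was detected with 0 to 21 UMIs per library: 1.96 and 13.9 CPM in WT, 7.24 and 7.25 CPM in 5xFAD, 0 and 0 CPM in Cnp-/-, and 0 and 3.82 CPM in Cnp-/-;5xFAD (adjusted p = 0.905). A count of 0 allows up to 3 UMIs in a library, so no fold is given for Ebp.

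Insig2 stood in astrocytes at 49.8 and 55.8 CPM in WT, 39.3 and 58.3 CPM in Cnp-/-, 47.1 and 66.3 CPM in 5xFAD, and 31.1 and 41.4 CPM in Cnp-/-;5xFAD (-0.37, SE 0.191, adjusted p = 0.983), and overlapped. Over the 8 libraries Srebf1 ranged from 58.9 to 87.0 CPM, Srebf2 from 173 to 260 CPM, Scap from 48.3 to 68.4 CPM and Insig1 from 42.1 to 86.4 CPM in this class.

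In neurons many of these genes stood slightly higher with 5xFAD, though none passed edgeR's threshold over all genes. All 32 members were tested. At an unadjusted p under 0.05, 15 were higher with 5xFAD, or 46.9%, against 5.01% of all 21584 genes: Acat2, Hmgcs1, Mvd and Fdps of the early steps, Fdft1, Sqle, Lss, Cyp51, Msmo1, Hsd17b7 and Dhcr7 of the sterol steps, and Insig1, Stard4, Acaca and Fads2. Lower were 2 (Scd2, whose libraries overlapped, and Scd1), or 6.25%, against 6.76% of all genes. After adjustment edgeR called 0 (0% of all genes), whereas DESeq2 called 6, with Hsd17b7, Fdps, Hmgcs1, Fdft1 and Acat2 higher and Scd2 lower, against 2.70% of the genes to which it gave an adjusted p. The median log2 fold change was 0.24, against 0.00 over all genes, and 25 of the 32 were positive.

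In 6 members (Hsd17b7, Lss, Acaca, Hmgcs1, Fdft1 and Acat2) every 5xFAD library lay above every library without the transgenes, against 2.71% of all genes. Insig2 and Scd1 were lower without overlap, against 2.47% of all genes. These genes and Fdps are given here after their values were seen. Promoter sequence was at hand for Acat2, Hmgcs1, Hsd17b7 and Lss, and is shown because these are genes higher in all 4 5xFAD libraries with an entry in the RefSeq table of promoters (build GRCm38.p6). Fdft1 has no entry, and the entry for Acaca is left out because it starts 65766 bases inside the annotated gene. Each run covers the 210 bases from 250 to 41 bases before the transcript start, at chr17:12960766-12960975 (minus strand) for Acat2, chr13:119690101-119690310 (plus strand) for Hmgcs1, chr1:169969246-169969455 (minus strand) for Hsd17b7 and chr10:76531355-76531564 (plus strand) for Lss. Capitals mark 3 motifs on either strand: the core of a sterol regulatory element, TCACNCCAC, to which SREBP proteins bind, the GC box GGGCGG, and the CCAAT box, both frequent in promoters.

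Acat2: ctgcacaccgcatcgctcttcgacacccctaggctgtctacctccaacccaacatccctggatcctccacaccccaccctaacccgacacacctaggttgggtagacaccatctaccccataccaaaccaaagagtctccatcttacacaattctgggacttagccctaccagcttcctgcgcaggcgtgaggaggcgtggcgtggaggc
Hmgcs1: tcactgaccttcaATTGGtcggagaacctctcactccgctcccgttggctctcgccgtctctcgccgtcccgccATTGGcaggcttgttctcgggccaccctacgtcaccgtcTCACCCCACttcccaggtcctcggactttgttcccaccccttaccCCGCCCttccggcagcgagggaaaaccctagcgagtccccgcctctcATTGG
Hsd17b7: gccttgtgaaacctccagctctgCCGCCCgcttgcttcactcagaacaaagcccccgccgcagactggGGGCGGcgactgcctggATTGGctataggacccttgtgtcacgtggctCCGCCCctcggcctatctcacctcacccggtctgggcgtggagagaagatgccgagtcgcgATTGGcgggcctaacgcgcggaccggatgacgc
Lss: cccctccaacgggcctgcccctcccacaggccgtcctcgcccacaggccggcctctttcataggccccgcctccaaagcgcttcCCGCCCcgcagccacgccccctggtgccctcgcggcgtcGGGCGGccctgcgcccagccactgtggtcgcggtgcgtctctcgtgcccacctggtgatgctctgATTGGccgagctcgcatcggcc

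Hmgcs1 held 1 match to the sterol element core, 3 to CCAAT and 1 to the GC box in this window. Hsd17b7 held 2 CCAAT and 3 GC boxes, Lss 1 CCAAT and 2 GC boxes, and Acat2 none of the 3 motifs. The 25 members in the promoter table have 34 windows, of which 1 (Hmgcs1) held the sterol element core, 17 CCAAT and 20 the GC box, against 0.855%, 29.9% and 26.7% of all 32851 windows of this length. Of the 34, 8 windows of 6 genes start more than 1000 bases inside the annotated gene. Of the 26 others, 1 held the sterol element core, 16 CCAAT and 16 the GC box. The matches are a description of letters, not of binding.

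Acat2, an acetyl-CoA acetyltransferase that makes acetoacetyl-CoA, had the smallest p-value for 5xFAD in neurons among the members given here. It stood at 17.3 and 16.0 CPM in WT and 15.5 and 14.7 CPM in Cnp-/-, against 23.1 and 23.5 CPM in 5xFAD and 21.3 and 20.5 CPM in Cnp-/-;5xFAD. The 5xFAD libraries (22.1 ± 1.43 CPM) lay above all others (15.9 ± 1.08 CPM), with a log2 fold change of 0.50 (SE 0.068, unadjusted p = 0.000153, adjusted p = 0.280).

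Hmgcs1, the next enzyme, stood at 29.5 and 29.6 CPM in WT, 27.3 and 11.999 CPM in Cnp-/-, 41.1 and 44.1 CPM in 5xFAD, and 39.6 and 33.7 CPM in Cnp-/-;5xFAD. The second Cnp-/- library lay far below the rest, and the log2 fold change was 0.73 (SE 0.231, adjusted p = 0.320). Without the first Cnp-/- library it was 1.09 and passed, with an adjusted p of 0.0447, and without the second it was 0.49 (adjusted p = 0.688). Fdps stood at 16.7 and 16.6 CPM in WT, 14.1 and 13.7 CPM in Cnp-/-, 22.6 and 20.8 CPM in 5xFAD, and 20.6 and 16.0 CPM in Cnp-/-;5xFAD (0.41, SE 0.093, adjusted p = 0.280), where the last library overlapped WT.

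Among the sterol steps, Fdft1, which joins farnesyl diphosphate into squalene, stood at 41.8 and 42.4 CPM in WT, 35.9 and 35.0 CPM in Cnp-/-, 57.9 and 47.7 CPM in 5xFAD, and 52.8 and 44.6 CPM in Cnp-/-;5xFAD (log2 fold change 0.41, SE 0.088, adjusted p = 0.280). Lss, which closes the sterol ring, stood at 17.6 and 17.2 CPM in WT, 15.6 and 15.4 CPM in Cnp-/-, 24.0 and 20.1 CPM in 5xFAD, and 20.3 and 18.4 CPM in Cnp-/-;5xFAD (0.35, SE 0.087, adjusted p = 0.280). In both genes the Cnp-/- libraries were lowest and the first 5xFAD library highest.

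Hsd17b7, a ketosteroid reductase of the same steps, stood at 6.3 and 6.1 CPM in WT, 4.7 and 4.4 CPM in Cnp-/-, 7.8 and 7.5 CPM in 5xFAD, and 8.2 and 7.5 CPM in Cnp-/-;5xFAD (0.56, SE 0.101, adjusted p = 0.280). Acaca stood at 184 and 194 CPM in WT, 195 and 183 CPM in Cnp-/-, 237 and 206 CPM in 5xFAD, and 211 and 199 CPM in Cnp-/-;5xFAD (0.19, SE 0.070, adjusted p = 0.370). The gap for Acaca between the highest library without and the lowest with 5xFAD was the smaller of the pair relative to its level.

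Scd1 and Insig2 lay on the other side. Scd1, at 18 to 109 UMIs per library, stood at 0.84 and 1.54 CPM in WT and 0.38 and 0.93 CPM in Cnp-/-, against 0.27 and 0.35 CPM in 5xFAD and 0.33 and 0.32 CPM in Cnp-/-;5xFAD (log2 fold change -1.44, SE 0.353, adjusted p = 0.280). Insig2 stood at 35.2 and 35.2 CPM in WT, 35.0 and 39.9 CPM in Cnp-/-, 29.2 and 34.9 CPM in 5xFAD, and 30.9 and 32.7 CPM in Cnp-/-;5xFAD (-0.17, SE 0.074, adjusted p = 0.446). Neither overlapped, Insig2 by a margin of 34.9 against 35.0 CPM. Within the Slc17a7 neurons and within the Gad neurons described further on, both genes overlapped. In the Slc17a7 neurons Scd1 stood at 0 and 0.79 CPM in WT and 0.17 and 0 CPM in Cnp-/-, against 0.077 and 0.037 CPM in 5xFAD and 0.28 and 0.25 CPM in Cnp-/-;5xFAD. In the Gad neurons its log2 fold change was -2.60 (adjusted p = 0.856).

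The early steps together summed to 113 CPM with 5xFAD (96.3 to 123) and 80.7 CPM without it (57.7 to 93.6), a ratio of 1.40 with no overlap. The sterol steps summed to 238 and 188 CPM and overlapped. Without the second Cnp-/- library, 13 members were still higher at an unadjusted p under 0.05, against 2.73% of all genes, and the median was 0.23. When each library was left out in turn, 9 to 15 were higher.

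**Figure D4:**
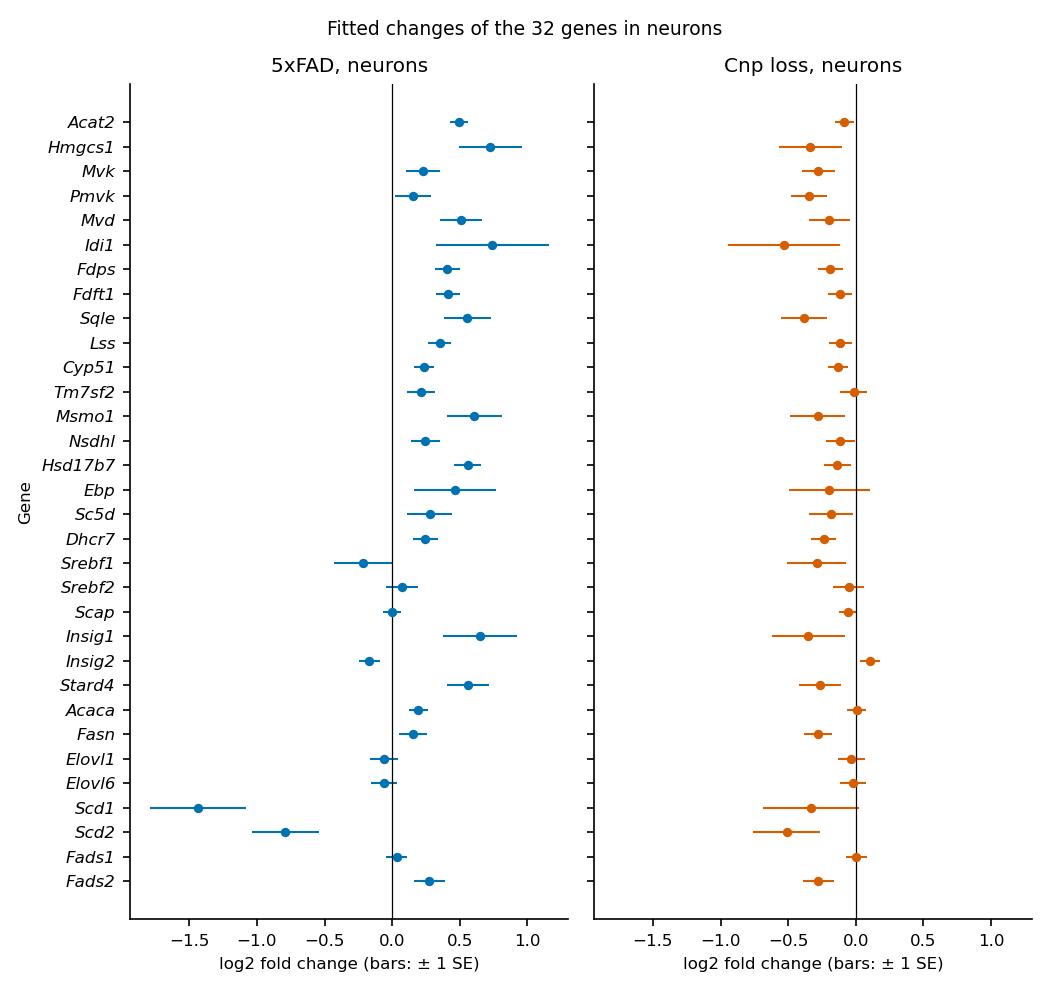
Log2 fold change with its standard error of the 32 genes in neurons, for 5xFAD and for Cnp loss, each over 4 against 4 libraries and grouped by role. With 5xFAD 25 of the 32 estimates lie above 0, and with Cnp loss 3 of the 32 do.

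The neurons of the 8 libraries differed in make-up, with ranges that overlapped between the arms. Nuclei with UMIs of Slc17a7 (the glutamate transporter of cortical excitatory neurons) and none of Gad1 or Gad2 numbered 2205 to 4199 per library with 5xFAD and 1931 to 3109 without it. Nuclei with Gad1 or Gad2, which make GABA, and no Slc17a7 numbered 627 to 1603 with and 1013 to 2727 without it. With 5xFAD the extremes were 627 of 6181 neurons (second Cnp-/-;5xFAD library) and 1603 of 5142 (second 5xFAD library). Without 5xFAD they were 1013 of 5547 (second WT library) and 2727 of 6120 (first WT library). Median UMIs per neuron were 8891 to 11309 with 5xFAD and 6474 to 10104 without it. The MOL markers in neurons summed to 170 to 224 CPM with 5xFAD and 199 to 348 CPM without it. The part of these in the result was not tested.

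Within the Slc17a7 neurons alone, 12 of 31 members were higher at an unadjusted p under 0.05, against 2.72% of genes, with a median of 0.35. There 8 members were higher without overlap (Acat2, Hmgcs1, Fdps, Fdft1, Hsd17b7, Insig1, Stard4 and Fads2), against 2.45% of genes. Lss and Acaca, which did not overlap over all neurons, did so here. The first WT and second Cnp-/- libraries, 2 of the 4 without 5xFAD, were low for some members in this subset. In them Insig1 stood at 1.36 and 0.49 CPM, against 9.35 and 6.97 CPM in the other WT and Cnp-/- libraries. Scd2 stood at 0.041 CPM in both, against 7.90 and 2.94 CPM in the others. The second Cnp-/- library also had Msmo1 at 3.83 CPM and Fads2 at 6.40 CPM, the lowest of the 8. Within the Gad neurons 2 of 32 were higher, against 1.49% of genes, with a median of 0.06. Acat2 was the 1 member higher without overlap there (1.28% of genes were), at 18.8 and 15.9 CPM in WT, 15.8 and 15.1 CPM in Cnp-/-, 18.9 and 20.2 CPM in 5xFAD, and 19.9 and 24.2 CPM in Cnp-/-;5xFAD. The difference between these sets of neurons, and the part of the low libraries in it, were not tested.

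With Cnp loss edgeR called 0 members in neurons (0.0185% of all genes), DESeq2 called 0, and 4 were lower at an unadjusted p under 0.05 (Pmvk, Dhcr7, Fasn and Fads2), against 4.46% of all genes. The median was -0.19, against 0.00 over all genes, and 3 of 32 were positive. Mvk and Fasn were lower without overlap, against 3.98% of all genes. Fasn stood at 9.8 and 8.7 CPM in WT, 6.9 and 7.4 CPM in Cnp-/-, 10.2 and 9.7 CPM in 5xFAD, and 8.7 and 7.4 CPM in Cnp-/-;5xFAD (log2 fold change -0.28, SE 0.105, adjusted p = 0.586). Pmvk, a kinase of the early steps, stood at 11.7 and 12.1 CPM in WT, 8.4 and 7.2 CPM in Cnp-/-, 12.9 and 9.8 CPM in 5xFAD, and 10.8 and 8.9 CPM in Cnp-/-;5xFAD (-0.34, SE 0.133, adjusted p = 0.596).

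The lowest values of both genes were in Cnp-/- libraries. Dhcr7, the last reductase before cholesterol, stood at 14.2 and 16.1 CPM in WT, 12.9 and 13.7 CPM in Cnp-/-, 17.3 and 21.1 CPM in 5xFAD, and 15.5 and 13.3 CPM in Cnp-/-;5xFAD (-0.24, SE 0.091, adjusted p = 0.596), and overlapped. For the interaction edgeR called 0 (0% of all genes), DESeq2 called 0, and 1 member (Hsd17b7, higher) had an unadjusted p under 0.05, or 3.12% against 2.47% of all genes. The regulators stayed within narrow ranges for Srebf2 (87.6 to 115 CPM) and Scap (35.7 to 45.5 CPM), with Srebf1 at 1.8 to 4.3 CPM and Insig1 at 4.1 to 13.7 CPM.

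In microglia, 15 members were tested and Acaca rose both with 5xFAD and with Cnp loss. It stood at 62.4 and 64.0 CPM in WT, on 23 and 11 UMIs, at 282 and 178 CPM in Cnp-/-, at 420 and 412 CPM in 5xFAD, and at 420 and 436 CPM in Cnp-/-;5xFAD. All 4 libraries with 5xFAD (422 ± 9.91 CPM) thus lay close together and above all 4 without it (146 ± 105 CPM). The increase with 5xFAD was 3.43-fold (log2 fold change 1.78, SE 0.176, adjusted p = 0.00356), and Acaca was the 1 member called, where 0.229% of all 9621 genes were. Without macrophages and myelin transcript enriched microglia (MyTE) the log2 fold change was 3.46 (adjusted p = 0.0027) and the interaction -3.85 (adjusted p = 0.165). This set, and every set named as without macrophages, also leaves out 181 nuclei with no subpopulation label. The size thus depends on which nuclei are counted. At an unadjusted p under 0.05, Acaca was higher and Cyp51 lower with 5xFAD, each 6.67% of members, against 5.78% and 3.6% of all genes. For Cnp loss Acaca was higher and Insig2 lower, each 6.67%, against 7.61% and 4.23% of all genes.

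With Cnp loss the log2 fold change of Acaca was 0.99 (SE 0.177, adjusted p = 0.0380), again the 1 member called, against 0.904% of all genes. On the 5xFAD background the values with and without Cnp loss lay close together, and the interaction was -1.87 (SE 0.354, unadjusted p = 0.000387), but edgeR called 0 for the interaction over all genes (0%, adjusted p of Acaca = 0.340). At an unadjusted p under 0.05 there were 2 (Acaca and Scd2, both negative), against 4.94% of all genes in that direction. DESeq2 called 1, against 0.736% of the genes to which it gave an adjusted p. With replicate number as a block in edgeR, Acaca lost its call for Cnp loss (0.99, adjusted p = 0.0600). The call for Cnp loss was lost without each of 7 libraries in turn (every one except the second Cnp-/- library), without macrophages and MyTE (2.00, adjusted p = 0.0541), and in homeostatic microglia alone (1.48, adjusted p = 0.539).

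The authors divided 2291 of the 2472 microglia nuclei further, and Acaca differed between these subpopulations. The other 181 nuclei had no subpopulation label and are counted only in the whole class. Their part in the class values was not tested. Homeostatic microglia held 1 and 2 Acaca UMIs in WT, 16 and 5 in Cnp-/-, 52 and 37 in 5xFAD, and 31 and 31 in Cnp-/-;5xFAD. In amyloid-associated disease-associated microglia (amyloid-DAM), Acaca stood at 660 and 703 CPM in 5xFAD and 673 and 767 CPM in Cnp-/-;5xFAD. The 5xFAD libraries held 112 to 184 amyloid-DAM nuclei each, against 1 and 0 in WT and 14 and 5 in Cnp-/- (246 and 442 CPM, on 5 and 3 UMIs), so different subpopulations made up the class in each group. In myelin-associated DAM it stood at 292 and 148 CPM in Cnp-/- and 383 and 620 CPM in Cnp-/-;5xFAD.

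In the 4 libraries with 5xFAD the levels in amyloid-DAM were thus above those of the whole class. MyTE, microglia that hold myelin transcripts, had 296 and 323 CPM in WT (on 11 and 3 nuclei), 355 and 260 CPM in Cnp-/-, 494 and 372 CPM in 5xFAD, and 529.6 and 566 CPM in Cnp-/-;5xFAD. In homeostatic microglia alone the 5xFAD effect on Acaca was 2.56 on the log2 scale and did not pass (adjusted p = 0.0641).

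**Figure D5:**
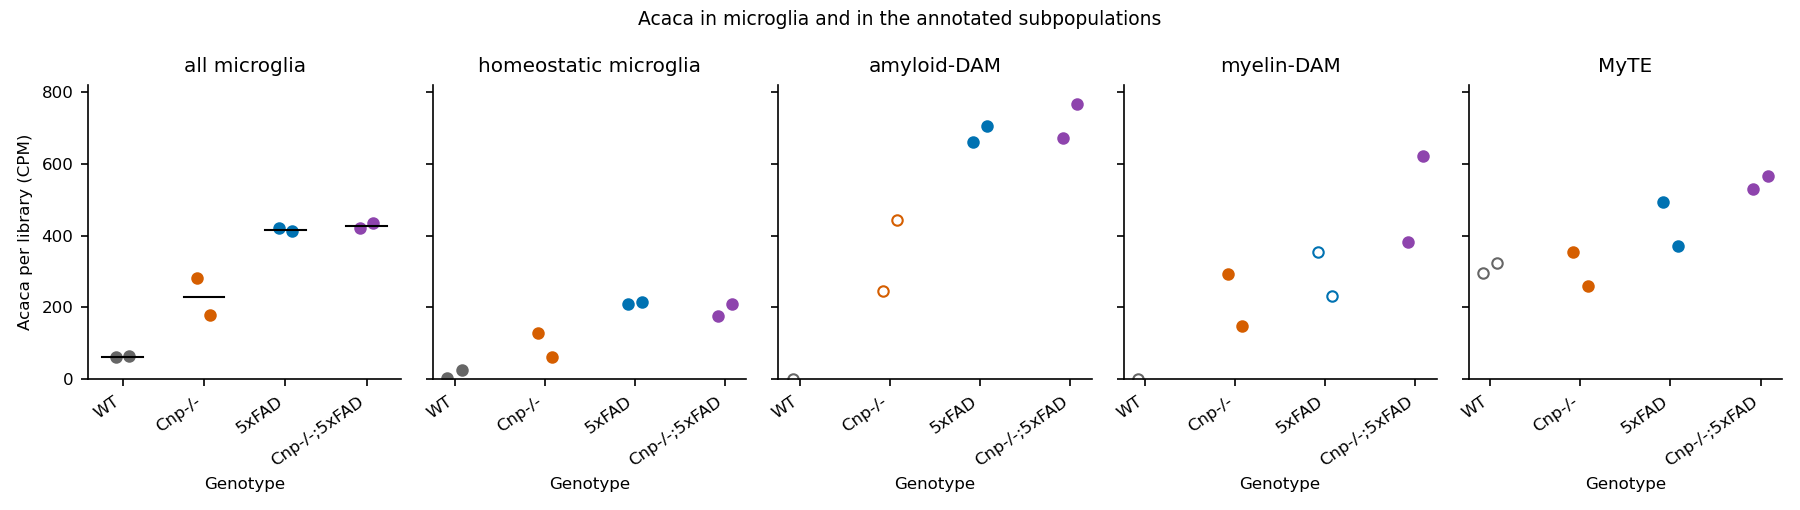
Acaca CPM in all microglia and in 4 subpopulations, with 1 dot per library by genotype, open circles for fewer than 20 nuclei, and lines at the means in the panel of all microglia. The 4 libraries with 5xFAD lie at 412 to 436 CPM in all microglia, and the WT libraries at 62.4 and 64.0 CPM.

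Markers of MOL, a class rich in Acaca, moved with Cnp loss in microglia. The 6 markers, none at 0, summed to 2023 to 4305 CPM with Cnp loss and 762 to 1842 CPM without it, and to 1821 to 2920 CPM with 5xFAD and 762 to 4305 CPM without it. With Cnp loss Mag (log2 fold change 1.08, adjusted p = 0.0365) and Mog (1.27, adjusted p = 0.0386) rose. The OPC markers (128 to 159 CPM with Cnp loss, 0 to 108 CPM without it) and the endothelial markers (143 to 236 against 93.1 to 117 CPM) were also higher without overlap. The NFOL markers overlapped (777 to 945 against 588 to 982 CPM), although one of them, Bcas1, rose with Cnp loss (log2 fold change 1.38, adjusted p = 0.0365). The neuron markers summed to 68.4 to 113 CPM with 5xFAD and 119 to 745 CPM without it. The part of these transcripts in the Acaca result was not tested.

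Insig2, on average highest in microglia among the classes, stood at 67.8 and 69.8 CPM in WT, 15.5 and 21.8 CPM in Cnp-/-, 70.9 and 56.7 CPM in 5xFAD, and 70.0 and 19.8 CPM in Cnp-/-;5xFAD (log2 fold change for Cnp loss -1.17, SE 0.409, adjusted p = 0.282). The first Cnp-/-;5xFAD library lay with the libraries that have Cnp, and the other 3 far below them. Without it the log2 fold change was -1.76. Msmo1 stood at 2.7 and 0 CPM in WT, 17.3 and 6.2 CPM in Cnp-/-, 20.0 and 15 CPM in 5xFAD, and 13.5 and 15.2 CPM in Cnp-/-;5xFAD (adjusted p = 0.634), and overlapped. WT held 1 and 0 UMIs, too few for a fold.

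Summed over the 32 genes, microglia held 928 CPM with 5xFAD and 668 CPM without it, a ratio of 1.39 with no overlap. The fatty acid genes alone summed to 570 and 283 CPM (ratio 2.01, no overlap), most of which was Acaca. Without Acaca and Scd2 the sum over the members was 452 CPM with 5xFAD and 479 CPM without it, and the libraries overlapped.

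A further set of 22 genes of lipid metabolism in 3 lists (myelin lipid enzymes, other fatty acid enzymes, and cholesterol turnover, storage and sensing) was tested beside them. Of the 18 tested in NFOL 1 passed (1.60% of all genes did), and of the 17 in microglia 2 (0.904% of all genes), all for Cnp loss and upward, and 0 in the other classes or for 5xFAD or the interaction. In NFOL this was Aspa, which frees acetate for myelin lipid synthesis, at 84.8 and 177 CPM in WT, 324 and 259 CPM in Cnp-/-, 104 and 184 CPM in 5xFAD, and 219 and 372 CPM in Cnp-/-;5xFAD (log2 fold change 1.16, adjusted p = 0.0337). The call was lost without the first WT, first Cnp-/-, first 5xFAD or second Cnp-/-;5xFAD library, and with the same number of nuclei per library (1.26, adjusted p = 0.0822).

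In microglia Aspa stood at 84.1 and 75.7 CPM in WT, 370 and 340 CPM in Cnp-/-, 145 and 182 CPM in 5xFAD, and 212 and 311 CPM in Cnp-/-;5xFAD (1.44, adjusted p = 0.0124). Ugt8a, which makes the galactolipid of myelin, stood at 46.1 and 23.3 CPM in WT, 199 and 181 CPM in Cnp-/-, 112 and 124 CPM in 5xFAD, and 114 and 139 CPM in Cnp-/-;5xFAD (1.25, adjusted p = 0.0339). Both are genes of myelinating cells, and in both the 2 Cnp-/- libraries were highest. The MOL markers in microglia also rose with Cnp loss (2023 to 4305 CPM, against 762 to 1842 CPM). MyTE nuclei numbered 11 and 3 in WT, 59 and 20 in Cnp-/-, 47 and 30 in 5xFAD, and 47 and 53 in Cnp-/-;5xFAD. The part of these in the rises of Aspa and Ugt8a was not tested. When each library was left out in turn, Aspa kept its call in 4 of 8 fits (lost without the first Cnp-/-, either 5xFAD or the second Cnp-/-;5xFAD library) and Ugt8a in 2 of 8 (kept without the first WT or the second Cnp-/- library).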

How the data were processed

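Nuclei of 8 mouse hemisphere libraries (4 genotypes, 2 libraries each) were sequenced on a droplet platform. Per the labels and the study's methods, the authors aligned reads with Cell Ranger 6.1.2 to the mm10 reference, removed ambient RNA with CellBender, filtered nuclei and annotated classes in Seurat; the deposited values are UMI counts per gene and nucleus. Whether intronic reads were counted and how doublets were treated are not given in the sources used here. Whether ambient removal was run by library is not stated, and it can lower sparse genes unequally, which was not tested.

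Here UMI counts were summed per library and annotated class, and every profile tested held at least 20 nuclei. Endothelial cells and pericytes were not among the classes tested. Each of 6 classes was fitted with edgeR 4.0.16 (R 4.3.3; filterByExpr, TMM, quasi-likelihood, 3 contrasts, 18 comparisons), with Benjamini-Hochberg adjustment over all genes tested and a threshold of 0.05; the fit was tested on simulated counts. DESeq2 1.42.0 was an alternative. CPM used class totals. Sums and motif searches used Python 3.11.15.

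The members and lists were chosen with earlier results of these data known. Named in full were members past the threshold, the 3 smallest p-values for Cnp loss in a class with under 3 calls, the SREBP regulators in MOL, astrocytes and neurons, and the Scd, Elovl and Fads pairs; others named were chosen after their values were seen. Class depth limited precision: MOL numbered 444 to 1018 and NFOL 22 to 104 nuclei per library. Counts of 0 are bounded by 3 UMIs, for counting error only.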

Additional observations from a re-analysis of the deposited data

Results flagged for a closer look

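In 92 groups of 4 to 8 libraries examined for a library standing apart from the others, 8 were found, while chance gives about 1 in 20. The second Cnp-/- library stood apart 2 times among the neurons without 5xFAD, with Hmgcs1 at 11.999 CPM (others 27.3 to 29.6) and Insig2 at 39.9 CPM (others 35.0 to 35.2). In libraries with Cnp loss, Scd2 in NFOL stood at 61.0 CPM in the first Cnp-/-;5xFAD library (others 131 to 142). In the same library Insig2 in microglia stood at 70.0 CPM (others 15.5 to 21.8). Sc5d in OPC stood at 17.4 CPM in the first Cnp-/- library (others 1.72 to 2.10), and Ebp in astrocytes at 3.82 CPM in the second Cnp-/-;5xFAD library (others 0). Over all 8 libraries, the summed early steps in OPC stood at 114 CPM in the second WT library (others 90.6 to 98.5). The summed fatty acid genes in neurons stood at 406 CPM in the first 5xFAD library (others 333 to 364).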

How the results depend on the processing

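Under the alternatives tried, 242 counts of members called stayed as in the report and 28 moved, 446 single-gene calls kept their side of the threshold, 36 fell below it and 11 passed it, and 524 summed ratios held while 16 moved. None of the single-gene values changed sign, whereas 59 of the 540 summed ratios did, all for groups whose libraries overlapped (log2 ratio up to 0.29 in size). For Cnp loss in MOL, 0 members were called with a replicate block and 0 to 2 when libraries were left out in turn (2, Scap and Scd2, without the first Cnp-/- library). In NFOL, leaving out libraries gave 0 to 1 for Cnp loss. In neurons 5xFAD gave 6 with DESeq2 and 0 to 1 without single libraries. In microglia Cnp loss gave 0 with the replicate block, 0 without macrophages and MyTE, 0 in homeostatic microglia alone and 0 to 1 without single libraries, and 5xFAD gave 0 in homeostatic microglia alone; the interaction gave 1 with DESeq2. Without a filter on low counts there were 2 for the interaction in MOL, 1 each for Cnp loss and 5xFAD in astrocytes, and 1 for the interaction in microglia. The shares of all genes called in these comparisons are not given here. Totals over all genes given below for other comparisons also rose without the filter. The astrocyte call for Cnp loss was Ebp, which stood at 0 CPM in 3 libraries. The call of Ugt8a in microglia was lost with the replicate block (adjusted p = 0.0600) and without macrophages and unlabelled nuclei (0.0679). The subsets of neurons and of homeostatic microglia were chosen after seeing the data. The cause of these moves was not tested.

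Over all genes, calls for Cnp loss numbered 67 in MOL, against 23 with the replicate block, 339 with DESeq2 and 544 without a filter, and 116 in NFOL, against 43, 68 and 344. In microglia they numbered 87, against 29, 169 and 423, and for 5xFAD 22, against 11, 50 and 300. In neurons DESeq2 called 519 genes for 5xFAD, against 0, and 173 for Cnp loss, against 4. The deviations of same-numbered libraries from their genotype means correlated over genes at -0.203 to 0.189 between genotypes. These values cannot decide whether the numbers pair the libraries. Low counts, 0 to 19 UMIs per library for Fads1 in MOL, and 2 libraries per genotype limit the precision.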
